A study of Mus musculus with 9 samples.

Results

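The expression of 50 mitosis genes was examined in osteocyte-like cells differentiated from MC3T3-E1, a pre-osteoblast line of mouse calvarial bone. The genes were chosen by symbol, from what their products do in cell division: cyclins, kinases, kinetochore, spindle, chromosome and cytokinesis proteins and the transcription factor *Foxm1*. All 50 were found among the 55416 genes of the deposited tables, and all 50 had enough counts to be tested, together with 13679 genes in all. The wild-type cells (subclone 4 of the line, so that all cultures derive from 1 clone) were differentiated with dexamethasone, ascorbic acid and β-glycerophosphate (BGP), and from day 27 they were kept for 16 h with 4 mM BGP, an organic phosphate, with 4 mM NaHPO4, a mixture of sodium phosphates and thus inorganic phosphate, or with neither (Control). The sample labels give BGP in the osteogenic medium for all 27 days, whereas the study's methods withdraw it for the last week, and the medium itself holds 1 mM phosphate in all 3 conditions. Each condition has 3 libraries numbered 1 to 3, the Control libraries are shared by both treatments, and no source states whether the libraries of a condition came from separate cultures. The p-values therefore measure the spread between these libraries, which may be technical.

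Mitosis is the phase in which a cell condenses its duplicated chromosomes, attaches them to the spindle and divides. Cyclin-dependent kinase 1 (Cdk1) with cyclin A or B starts it, the Polo and Aurora kinases and the spindle checkpoint order its steps, and the anaphase-promoting complex ends it by marking cyclin B and securin for degradation. Many of these transcripts, though not all, rise between S phase and mitosis and are low in resting cells. In a mixed culture their level therefore depends in part on the share of dividing cells. Osteoblast precursors divide, whereas osteocytes are regarded as cells that have left the cell cycle.

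Total counts lay between 21390839 and 28234404 per library, with 25203779 to 28234404 in the NaHPO4 libraries against 22331071 to 23546609 with BGP and 21390839 to 25646046 in Control. The 10 highest genes took between 15.9% and 17.7% of the counts of a library. All 12 osteoblast and osteocyte markers examined were expressed, and together took 98710 to 115800 CPM before TMM scaling (CPM, a count relative to the library's total count). Of the 17 markers of adipocytes, chondrocytes, blood and endothelium and myoblasts, 10 did not have enough counts to be tested, and *Myod1*, *Myog* and *Cfd* had 0 counts in all 9 libraries. The chondrocyte collagen *Col2a1* was the exception, whose mean after TMM scaling, used for all CPM of single genes here, was 242 CPM in Control and went from 177 CPM with NaHPO4 to 342 CPM with BGP.

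Mitosis genes are known to share promoter elements through which the DREAM complex, MuvB with B-Myb or FOXM1, and the factor NF-Y act. These are the cell cycle homology region, searched here as TTTGAA, and the CCAAT box, searched as CCAAT. RefSeq promoter windows of 300 bases, from 250 before to 50 after the transcription start (table build GRCm38.p6), were matched by symbol for 41 of the 50 genes. They were not matched for *Ccna2*, *Aurkb*, *Foxm1*, *Tpx2*, *Incenp*, *Kif20a*, *Cdc25c*, *Dlgap5* and *Smc4*. On either strand, TTTGAA was present for 31 of the 41 genes (75.6%), compared to 20.2% of all 27025 genes in the table and 14.2% of the 10036 genes in it that were tested here. Within 100 bases before and 50 after the start, 28 of the 41 genes (68.3%) held it, compared to 5.64% of the tested genes. CCAAT was present for 32 of the 41 genes (78.05%), compared to 41.1% of all genes and 43.35% of tested genes, and 21 of the 41 genes held it at least 2 times, compared to 16.7% of tested genes. When TTTAAA or TTCGAA, which read the same on both strands, were accepted as well as TTTGAA, the count was 36 of 41 genes (87.8%), compared to 24.5% of tested genes.

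The 6 promoters below belong to the genes with the smallest p between BGP and NaHPO4, the comparison in which most mitosis genes differed. They are printed 5′ to 3′ on the strand of the gene, with TTTGAA and CCAAT on either strand in capitals (TTCAAA and ATTGG are the reverse complements), and the 2 motifs did not overlap each other in any of them. Each window occurs 1 time in GRCm39, and its RefSeq start lies 0 to 42 bases from the nearest start of the gene in GENCODE. The *Top2a* window is chr11:98914966-98915265 on the minus strand and holds CCAAT 6 times, and that of *Smc2* is chr4:52438971-52439270 on the plus strand. The *Mki67* window is chr7:135318059-135318358 on the minus strand, and that of *Cdk1* is chr10:69188693-69188992 on the minus strand. The *Ncapd2* window is chr6:125168500-125168799 on the minus strand, and that of *Ncapg* is chr5:45827017-45827316 on the plus strand.
Top2a: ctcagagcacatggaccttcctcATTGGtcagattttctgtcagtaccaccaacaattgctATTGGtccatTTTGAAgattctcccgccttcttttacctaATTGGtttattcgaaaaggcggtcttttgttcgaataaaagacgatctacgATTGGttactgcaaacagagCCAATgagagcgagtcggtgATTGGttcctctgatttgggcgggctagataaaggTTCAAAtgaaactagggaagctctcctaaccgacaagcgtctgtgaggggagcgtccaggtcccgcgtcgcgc
Smc2: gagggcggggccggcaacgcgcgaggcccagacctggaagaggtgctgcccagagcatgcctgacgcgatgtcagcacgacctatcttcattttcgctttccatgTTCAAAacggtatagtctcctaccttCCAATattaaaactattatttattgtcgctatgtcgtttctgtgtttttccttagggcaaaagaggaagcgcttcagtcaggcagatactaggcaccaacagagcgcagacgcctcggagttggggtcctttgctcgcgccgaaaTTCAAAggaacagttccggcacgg
Mki67: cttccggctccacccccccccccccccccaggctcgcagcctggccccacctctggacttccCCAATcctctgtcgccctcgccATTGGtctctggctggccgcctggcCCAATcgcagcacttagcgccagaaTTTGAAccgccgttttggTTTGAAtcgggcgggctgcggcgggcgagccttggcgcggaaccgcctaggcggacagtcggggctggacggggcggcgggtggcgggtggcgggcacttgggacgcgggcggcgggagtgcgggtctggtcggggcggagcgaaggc
Cdk1: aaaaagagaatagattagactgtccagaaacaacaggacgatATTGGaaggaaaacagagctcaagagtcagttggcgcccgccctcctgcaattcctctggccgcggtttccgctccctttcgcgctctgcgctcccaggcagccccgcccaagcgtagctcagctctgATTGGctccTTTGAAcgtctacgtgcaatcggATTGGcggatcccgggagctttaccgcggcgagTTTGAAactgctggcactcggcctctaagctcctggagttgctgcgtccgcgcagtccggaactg
Ncapd2: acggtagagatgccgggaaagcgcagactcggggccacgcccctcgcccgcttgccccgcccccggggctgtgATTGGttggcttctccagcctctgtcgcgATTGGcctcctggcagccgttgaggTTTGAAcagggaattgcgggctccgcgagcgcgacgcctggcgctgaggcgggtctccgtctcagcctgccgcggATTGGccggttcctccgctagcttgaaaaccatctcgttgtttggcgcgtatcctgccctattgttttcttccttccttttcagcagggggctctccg
Ncapg: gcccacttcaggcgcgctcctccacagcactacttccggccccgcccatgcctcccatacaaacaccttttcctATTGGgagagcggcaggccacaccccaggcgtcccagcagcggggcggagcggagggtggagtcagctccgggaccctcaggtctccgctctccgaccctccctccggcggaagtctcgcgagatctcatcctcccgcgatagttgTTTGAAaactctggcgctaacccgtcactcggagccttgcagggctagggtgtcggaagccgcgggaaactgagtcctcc
All 6 windows hold both motifs. In *Cdk1*, TTTGAA starts 15 bases before the transcription start, and in *Ncapg* it starts 30 bases before it. Among the genes that differed between BGP and NaHPO4, 9 of the 11 with a window held TTTGAA, and so did 22 of the 30 other genes with a window, so the motif was common in both. A match is a string of letters, and whether a factor binds there was not measured.

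Summed over the 50 genes, expression was 1409, 1426 and 1537 CPM in the Control libraries, 1364, 1410.0 and 1411 CPM with BGP, and 1584, 1574 and 1565 CPM with NaHPO4. The NaHPO4 libraries were the 3 highest of the 9, the BGP libraries overlapped with the lower Control libraries, and Control replicate 3 lay apart from the other Control libraries. The mean was 1574 ± 9.70 CPM (SD, n = 3) with NaHPO4, compared to 1457 ± 69.5 CPM in Control and 1395 ± 26.9 CPM with BGP. The same order was seen when each gene had equal weight. The median deviation of the 50 genes from their mean over all libraries was -0.063, -0.039 and 0.057 on the log2 scale in Control, -0.11, -0.065 and -0.061 with BGP, and 0.097, 0.094 and 0.090 with NaHPO4. In bulk RNA, fewer dividing cells and less mitotic RNA in each dividing cell cannot be told apart.

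**Figure D1:**
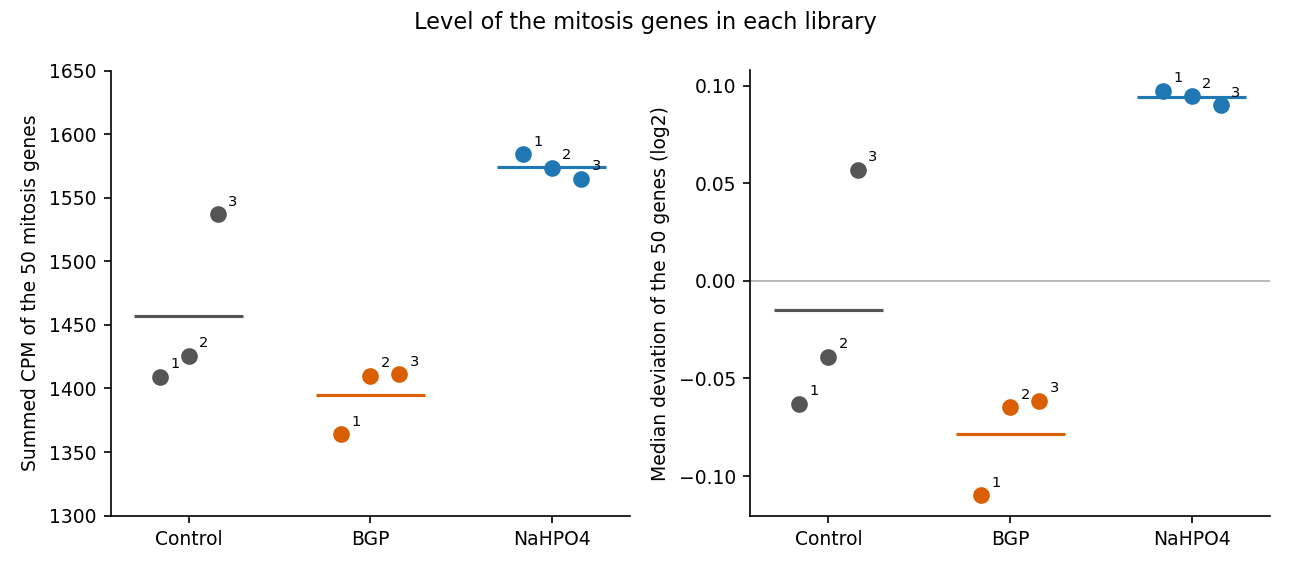
Left, summed CPM of the 50 mitosis genes in each library (the axis starts at 1300 CPM); right, the median deviation of the 50 genes from their mean over the 9 libraries, in log2 units. Points are libraries with their replicate number and lines are condition means; the 3 NaHPO4 libraries (1565 to 1584 CPM) lie above all others, and Control replicate 3 (1537 CPM) lies above the other Control libraries.

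NaHPO4 was compared with Control to see what inorganic phosphate does to these transcripts. Of the 50 genes, 6 were higher with NaHPO4 at an FDR below 0.05 in edgeR's quasi-likelihood test (FDR, the p-value adjusted over all genes tested), whereas 3.43% of all genes tested were called in this direction. They were *Top2a*, *Smc2*, *Ncapd2*, *Ncapg*, *Mki67* and *Cdk1*. The count of genes called lower was 0 in this test and in the other edgeR tests, DESeq2 and limma. At an unadjusted p below 0.05, 1 of the 50 genes was lower and 17 were higher, compared to 1388 lower and 1340 higher of all 13679 genes. Of the 50 genes, 41 lay above 0, with a median log2FC of 0.092 (range -0.19 to 0.29), and the median of all genes tested was 9.7e-05. In 14 of the 50 genes every NaHPO4 library lay above every Control library, whereas 11.6% of all genes did so. The changes were small. An FDR below 0.05 together with an absolute log2FC above 0.5, the limits of the study's methods, was met by 0 of the 50 genes and by 0.716% of all genes in either direction. Without Control replicate 1 the count of 6 became 3, and without Control replicate 3 the median log2FC rose to 0.14.

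BGP was compared with Control in the same fit. None of the 50 genes passed an FDR below 0.05 (0 by the quasi-likelihood test, the likelihood ratio and exact tests of edgeR, DESeq2 and limma). The share over all genes was also small, with 2.53% called in either direction and 0.556% that also had an absolute log2FC above 0.5. A count of 0 is near that share. At an unadjusted p below 0.05, 8 of the 50 genes were lower and 1 was higher, compared to 845 lower and 986 higher of all 13679 genes. The median log2FC was -0.079 (range -0.22 to 0.25), 41 of the 50 genes lay below 0, and the median of all genes was -0.0043. In 7 genes every BGP library lay below every Control library, and 8.79% of all genes did so. Without Control replicate 3 the median log2FC was -0.025.

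Most calls were made between the treatments. With BGP, 13 of the 50 genes were lower than with NaHPO4, whereas 2.05% of all genes were called in this direction. They were *Top2a*, *Smc2*, *Mki67*, *Cdk1*, *Ncapd2*, *Ncapg*, *Tpx2*, *Ccna2*, *Ckap2*, *Kif11*, *Nuf2*, *Bub1* and *Kif4*, and they include the 6 genes called between NaHPO4 and Control. The count of genes called higher with BGP was 0 in all tests run, as it was at an unadjusted p below 0.05, where 27 genes were lower. Of all 13679 genes, 1069 were lower and 1247 higher at that unadjusted limit. The median log2FC was -0.17 (range -0.40 to 0.079), 43 of the 50 genes lay below 0, and the median of all genes was -0.0018. Every BGP library lay below every NaHPO4 library in 26 of the 50 genes, whereas 10.4% of all genes did so. The FDR and the log2FC limit together were met by 0 of the 50 genes and by 0.585% of all genes in either direction. Without BGP replicate 1 the count of 13 became 7, and the NaHPO4 libraries were also the deeper ones of this comparison, a part in the result that was not tested.

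**Figure D2:**
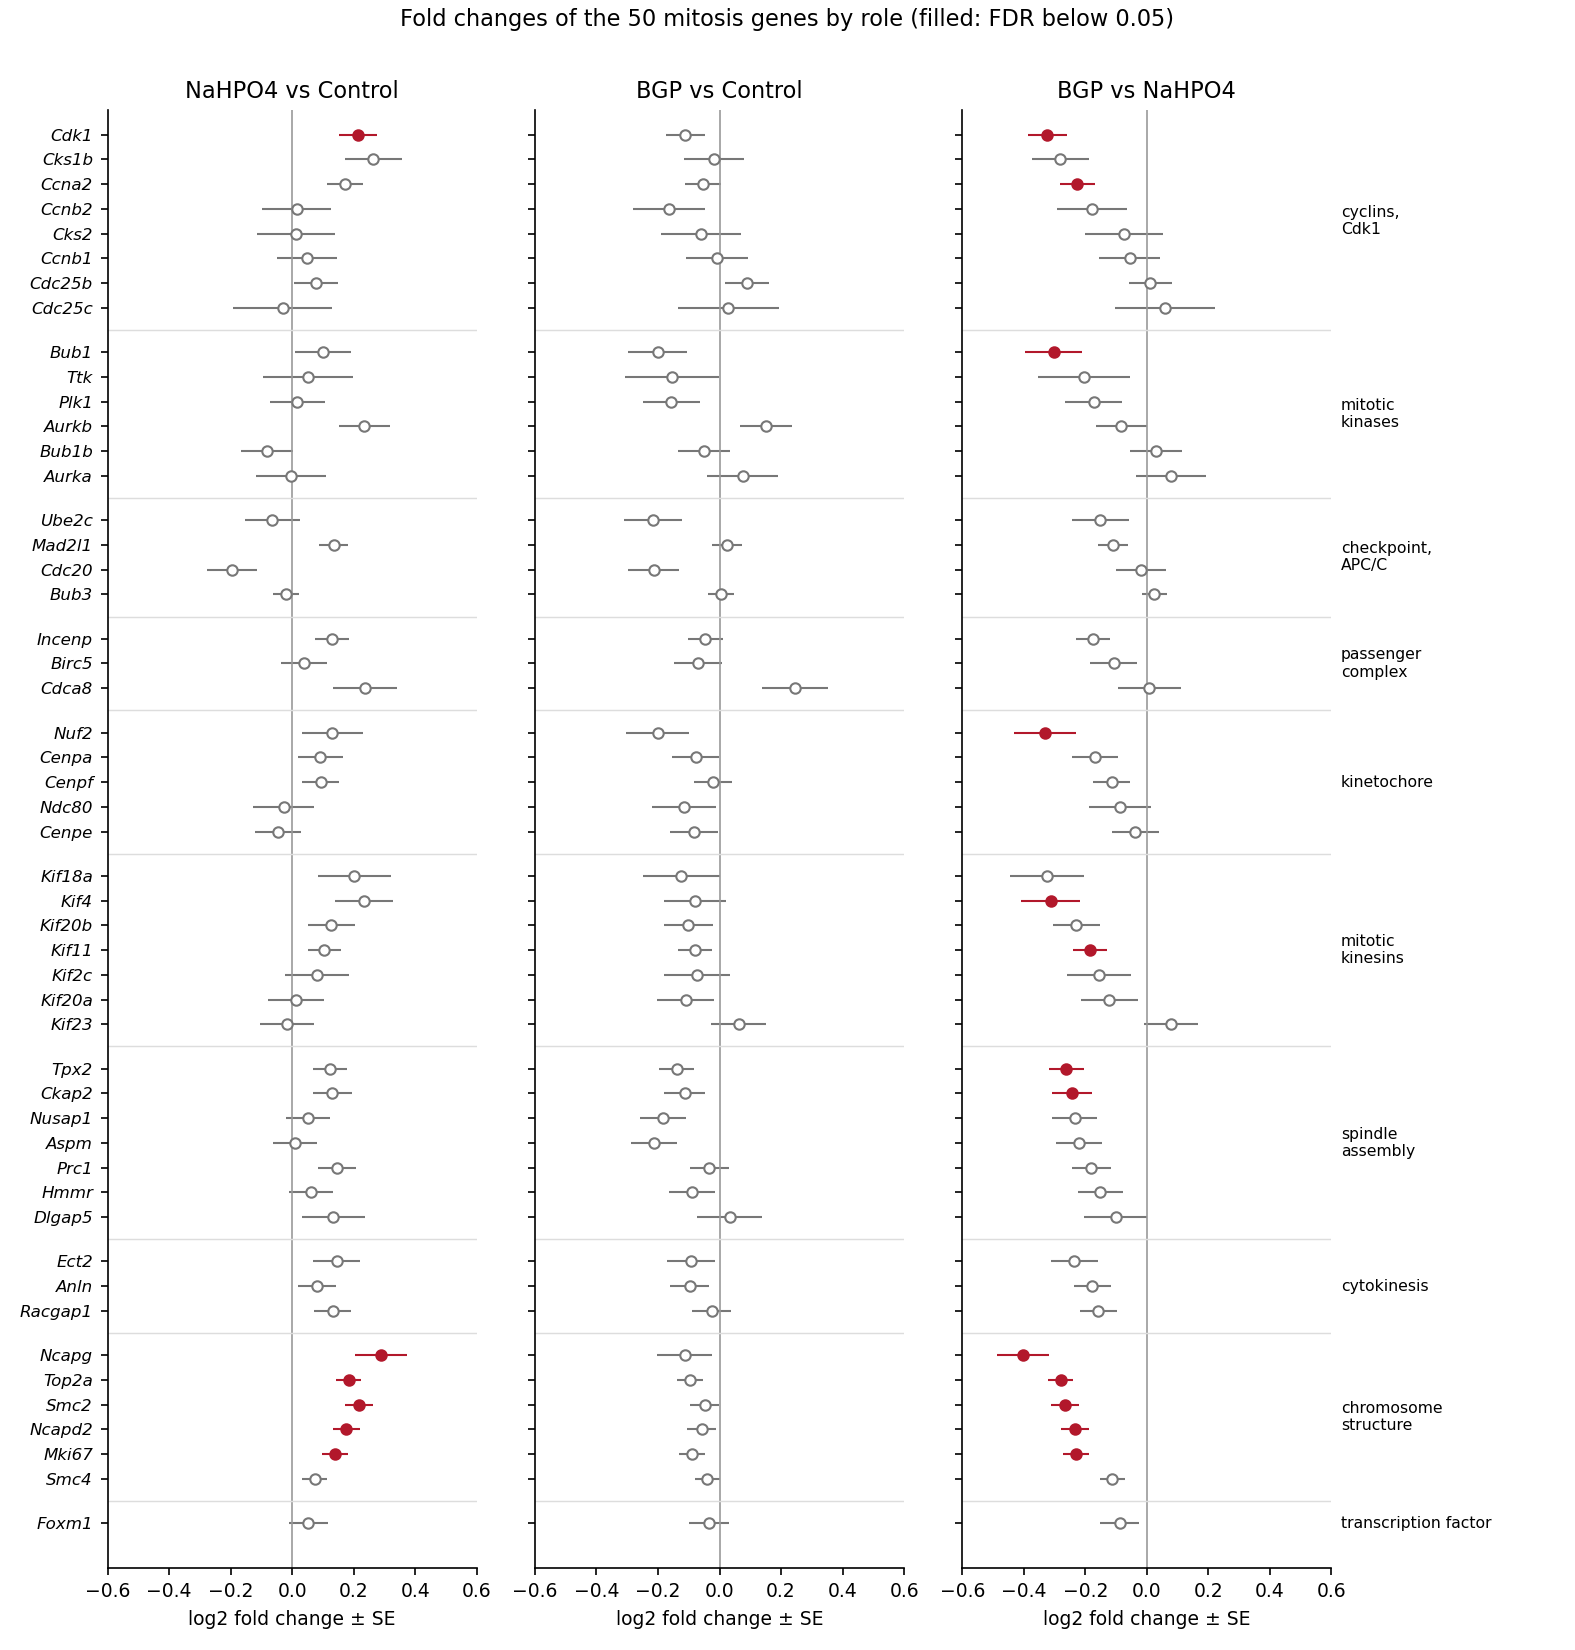
Log2 fold change with its standard error (SE) for each of the 50 mitosis genes in the 3 comparisons, grouped by role; filled points passed an FDR below 0.05. Most points lie to the right of 0 for NaHPO4 vs Control (41 genes) and to the left for BGP vs NaHPO4 (43 genes). Of the 6 chromosome structure genes, 5 are filled in both, where 3.43% of all genes were called higher and 2.05% lower.

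Most calls against Control fell on the genes of chromosome condensation and structure. This group also had the smallest median SE of the role groups for NaHPO4 vs Control, 0.0436, compared to 0.0755 over the 50 genes. In BGP vs NaHPO4 its median log2FC was -0.25 (median SE 0.0439). The spindle assembly genes had -0.22 (median SE 0.0733) with fewer calls. The part of the SE in where the calls fell was not tested. With NaHPO4, 5 of the 6 chromosome condensation and structure genes rose over Control, where 3.43% of all genes were called higher. The same 5 of 6 were lower with BGP than with NaHPO4, where 2.05% of all genes were called lower. Every BGP library lay below every NaHPO4 library for all 6, and for 10.4% of all genes. *Top2a* (ENSMUSG00000020914, chromosome 11 of GRCm39, 98883769 to 98915062, minus strand) encodes topoisomerase II alpha, which untangles sister chromatids. It had 124, 125 and 138 CPM in Control, 119, 127 and 117 CPM with BGP, and 151, 148 and 142 CPM with NaHPO4. All NaHPO4 libraries were thus above all others, while BGP and Control overlapped. The log2FC was 0.18 (SE 0.041, adjusted p = 0.00277) for NaHPO4 vs Control and -0.28 (SE 0.041, adjusted p = 1.39e-05) for BGP vs NaHPO4, the smallest p of the 50 genes, compared to -0.097 (adjusted p = 0.29) for BGP vs Control. *Mki67* (ENSMUSG00000031004, chromosome 7, 135291513 to 135318299, minus strand) encodes Ki-67, the coat of mitotic chromosomes and a marker of dividing cells. It had 105, 110.3 and 111 CPM in Control, 103, 103 and 101 CPM with BGP, and 125, 125 and 110.2 CPM with NaHPO4. NaHPO4 replicate 3 lay within the Control range, and the BGP libraries lay below all others. *Mki67* was higher with NaHPO4 than in Control by a log2FC of 0.14 (SE 0.042, adjusted p = 0.0318) and, compared to NaHPO4, lower with BGP (log2FC -0.23, SE 0.042, adjusted p = 0.000356). The call of *Mki67* against Control was lost without Control replicate 1, NaHPO4 replicate 1 or NaHPO4 replicate 2 (adjusted p from 0.147 to 0.194) and when only these 2 conditions were fitted (adjusted p = 0.0501).

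The other 4 genes of this group encode subunits of condensin, the ring complex that compacts chromosomes. *Smc2* (ENSMUSG00000028312, chromosome 4, 52439214 to 52488264, plus strand) encodes an ATPase of both condensin I and II. It had 53.5, 55.3 and 59.8 CPM in Control, 55.3, 53.3 and 54.7 CPM with BGP, and 65.2, 65.9 and 65.2 CPM with NaHPO4, so that only the NaHPO4 libraries stood apart. Its log2FC was 0.22 (SE 0.046, adjusted p = 0.0015) for NaHPO4 vs Control and -0.27 (SE 0.046, adjusted p = 0.000176) for BGP vs NaHPO4. *Ncapd2* (ENSMUSG00000038252, chromosome 6, 125144962 to 125169080, minus strand) encodes a regulatory subunit of condensin I, and had 66.2, 61.5 and 69.8 CPM in Control, 62.4, 62.6 and 64.98 CPM with BGP, and 73.7, 73.7 and 76.1 CPM with NaHPO4. Again the NaHPO4 libraries were the 3 highest. The log2FC of *Ncapd2* was 0.18 (SE 0.045, adjusted p = 0.0101) against Control, lost without Control replicate 2 (adjusted p = 0.104) or NaHPO4 replicate 3 (adjusted p = 0.052), and -0.23 (SE 0.046, adjusted p = 0.000732) for BGP vs NaHPO4.

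*Ncapg* (ENSMUSG00000015880, chromosome 5, 45827150 to 45859062, plus strand), another condensin I subunit, had the widest change of the 50 genes in both of these comparisons. It had 12.9, 15.8 and 14.3 CPM in Control, 13.3, 13.2 and 13.3 CPM with BGP, and 18.5, 17.6 and 16.4 CPM with NaHPO4. The log2FC was 0.29 (SE 0.084, adjusted p = 0.026) for NaHPO4 vs Control and -0.40 (SE 0.085, adjusted p = 0.00201) for BGP vs NaHPO4. The first of these calls was lost without Control replicate 1 or 3 or without NaHPO4 replicate 1 or 2 (adjusted p from 0.0705 to 0.2), while the second held with each library left out (adjusted p up to 0.0155). The exons of *Ncapg* overlap those of *Lcorl* on the opposite strand over 25.0% of their bases, and those of *Smc2* overlap its antisense transcript gene over 10.4%. The libraries were stranded, but the strand setting of the counting is not given in the sources used here, so some of these reads may belong to the neighbour. *Smc4*, the ATPase partner of Smc2, was not called. It had 90.4, 102 and 95.2 CPM in Control, 91.9, 95.1 and 92.8 CPM with BGP, and 101, 100.1 and 101.5 CPM with NaHPO4, and its log2FC was 0.073 (adjusted p = 0.328) for NaHPO4 vs Control and -0.11 (adjusted p = 0.113) for BGP vs NaHPO4.

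Condensin has 4 further subunit genes outside the 50, and *Ncapd3* and *Ncaph2* are named here after their values were seen, to complete the complex. *Ncapg2*, of condensin II, was higher with NaHPO4 than in Control (log2FC 0.23, SE 0.059, adjusted p = 0.00888) and lower with BGP than with NaHPO4 (log2FC -0.28, SE 0.060, adjusted p = 0.00187). *Ncaph*, the kleisin of condensin I, gave a log2FC of 0.28 (SE 0.079, adjusted p = 0.0187) and -0.28 (SE 0.079, adjusted p = 0.0293) in these comparisons. *Ncapd3* and *Ncaph2*, both of condensin II, were called in neither, with a log2FC for NaHPO4 vs Control of 0.14 (adjusted p = 0.137) and -0.085 (adjusted p = 0.177). Of all 8 condensin genes, 5 were thus called higher with NaHPO4 than in Control, against 3.43% of all genes, and 5 were called lower with BGP than with NaHPO4, against 2.05% of all genes. Of the 8, 0 were called between BGP and Control, where 2.53% of all genes were called and *Ncaph2* had an unadjusted p of 0.00533.

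Of the 8 genes of cyclins, Cdk1 and its activators, 1 was called higher with NaHPO4 than in Control, against 3.43% of all genes. Lower with BGP than with NaHPO4 were 2 of the 8, against 2.05% of all genes. *Cdk1* (ENSMUSG00000019942, chromosome 10, 69170976 to 69236595, minus strand) had 42.4, 49.7 and 47.5 CPM in Control, 39.7, 41.2 and 48.4 CPM with BGP, and 56.7, 49.8 and 55.5 CPM with NaHPO4. NaHPO4 replicate 2 lay just above the highest Control library, and BGP replicate 3 lay within the Control range. The log2FC of *Cdk1* was 0.21 (SE 0.062, adjusted p = 0.0269) for NaHPO4 vs Control and -0.32 (SE 0.063, adjusted p = 7e-04) for BGP vs NaHPO4. The first of these was lost without Control replicate 1, NaHPO4 replicate 1 or NaHPO4 replicate 3 (adjusted p from 0.1 to 0.23) and with DESeq2 (adjusted p = 0.0513). *Ccna2* (ENSMUSG00000027715, chromosome 3, 36619014 to 36626299), cyclin A2, which acts from S phase until early mitosis, had 31.9, 36.1 and 37.6 CPM in Control, 33.1, 34.8 and 34.0 CPM with BGP, and 39.3, 41.1 and 38.7 CPM with NaHPO4. The NaHPO4 libraries did not overlap with either other condition. Its log2FC was 0.17 (SE 0.058, adjusted p = 0.0636) for NaHPO4 vs Control and -0.23 (SE 0.058, adjusted p = 0.0132) for BGP vs NaHPO4, the latter lost without BGP replicate 1 (adjusted p = 0.0783) or NaHPO4 replicate 2 (adjusted p = 0.0865).

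*Ccnb1*, the main mitotic cyclin B, had 12.1, 13.1 and 15.6 CPM in Control, 12.4, 13.3 and 15.0 CPM with BGP, and 12.5, 14.7 and 15.2 CPM with NaHPO4. All 3 conditions overlapped, and the 95% interval of the log2FC between BGP and NaHPO4 was -0.26 to 0.14. Of its 50-base windows, 18.2% occur in other genes, chiefly a pseudogene, so its counts are uncertain. *Ccnb2*, the other cyclin B, had a log2FC of -0.18 (adjusted p = 0.469) for BGP vs NaHPO4 and the lowest value of this group for BGP vs Control, -0.16 (adjusted p = 0.593). *Cks1b*, a small subunit of Cdk complexes, had the highest log2FC of this group for NaHPO4 vs Control, 0.26 (SE 0.093, adjusted p = 0.0799). *Cdc25b* and *Cdc25c*, phosphatases that activate Cdk1, gave 0.011 and 0.059 for BGP vs NaHPO4, the only members of the group above 0.

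**Figure D3:**
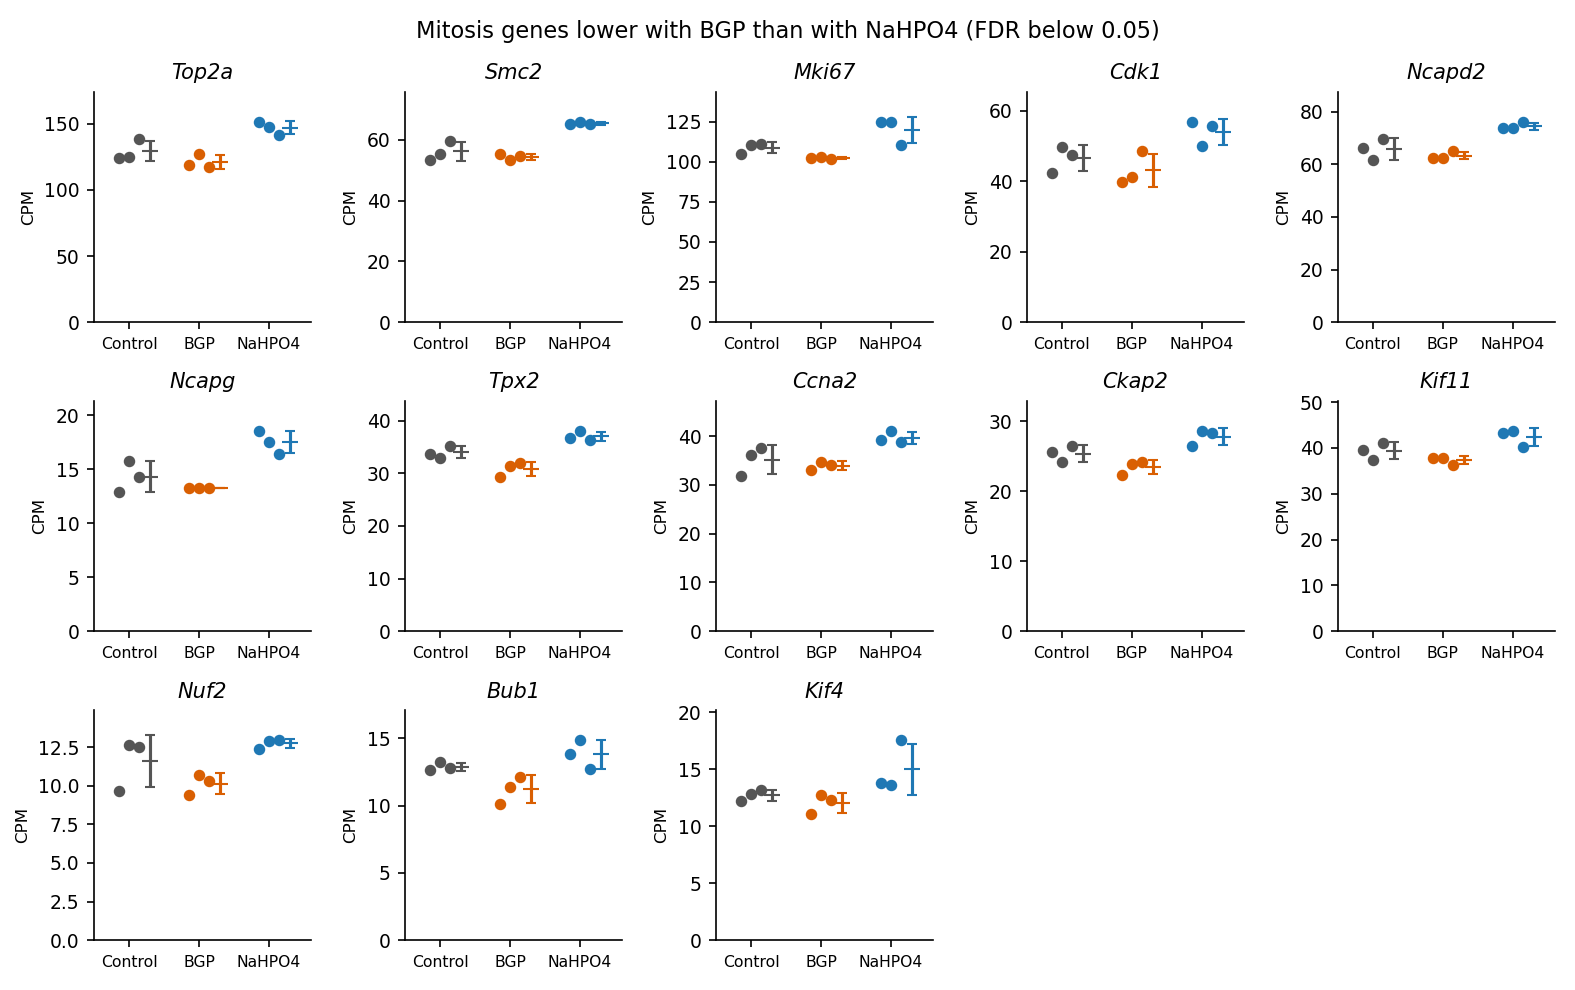
CPM of the 13 mitosis genes that were lower with BGP than with NaHPO4, ordered by p. Each point is 1 library, and the bar beside the points is the mean ± SD (n = 3); in every panel the 3 BGP points lie below the 3 NaHPO4 points, and the Control points overlap with BGP in 10 of the 13 panels.

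Among the 6 mitotic kinases, 1 was called, lower with BGP than with NaHPO4, where 2.05% of all genes were called lower. *Bub1* (ENSMUSG00000027379, chromosome 2, 127643036 to 127673806), a kinase of the spindle checkpoint, had 12.6, 13.2 and 12.8 CPM in Control, 10.1, 11.4 and 12.2 CPM with BGP, and 13.8, 14.9 and 12.7 CPM with NaHPO4. BGP lay below both other conditions in every library, by a log2FC of -0.30 (SE 0.093, adjusted p = 0.0466) against NaHPO4 and -0.20 (SE 0.095, adjusted p = 0.347) against Control. The call was lost without Control replicate 1, BGP replicate 1 or 2 or NaHPO4 replicate 1 or 2 (adjusted p from 0.0519 to 0.264), with DESeq2 (adjusted p = 0.0723) and when only the 2 treatments were fitted (adjusted p = 0.0534). *Plk1*, the Polo kinase of mitotic entry, had 13.6, 15.1 and 14.2 CPM in Control, 11.3, 12.9 and 14.3 CPM with BGP, and 15.1, 14.9 and 13.4 CPM with NaHPO4, and the conditions overlapped (log2FC -0.17, 95% interval -0.36 to 0.012, for BGP vs NaHPO4). *Aurkb*, the kinase of the chromosomal passenger complex, had 15.0, 13.2 and 15.9 CPM in Control, 17.0, 15.9 and 16.2 CPM with BGP, and 16.0, 17.4 and 18.6 CPM with NaHPO4. The log2FC of *Aurkb* against Control was 0.23 (SE 0.084, adjusted p = 0.0858) for NaHPO4 and 0.15 (SE 0.086, adjusted p = 0.471) for BGP, neither of them called. Its BGP and Control libraries overlapped, and the 95% interval for BGP vs Control was -0.024 to 0.33. *Aurka*, which acts at spindle poles, had the highest log2FC of the kinases for BGP vs NaHPO4, 0.079 (adjusted p = 0.803), and *Bub1b* had the lowest for NaHPO4 vs Control, -0.081 (adjusted p = 0.664).

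The 3 chromosomal passenger subunits that hold Aurkb were called in no comparison. Over all genes, 3.43% were called higher with NaHPO4 than in Control and 2.05% lower with BGP than with NaHPO4. For BGP vs Control 2.53% were called, and 0 of 3 is near these shares. *Cdca8*, which encodes borealin, had the highest log2FC of the 50 genes for BGP vs Control, with 9.82, 8.14 and 10.4 CPM in Control, 11.1, 11.5 and 11 CPM with BGP, and 12.6, 10.0 and 10.8 CPM with NaHPO4. The BGP libraries lay above all Control libraries, at a log2FC of 0.25 (SE 0.107, adjusted p = 0.291), and the value for NaHPO4 vs Control was 0.24 (SE 0.105, adjusted p = 0.191). *Incenp*, the scaffold of the complex, had a log2FC of -0.18 (SE 0.056, adjusted p = 0.0628) for BGP vs NaHPO4, and *Birc5*, which encodes survivin, of -0.11 (adjusted p = 0.517).

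The spindle checkpoint and the anaphase-promoting complex were the group in which the median log2FC for NaHPO4 vs Control was below 0 (-0.042 over 4 genes), and 0 of 4 genes were called in any comparison. Over all genes, 3.43% were called higher and 3.95% lower with NaHPO4 than in Control. Called were 2.53% for BGP vs Control, and 2.05% were lower with BGP than with NaHPO4. A count of 0 of 4 is near these shares. *Cdc20*, the activator of the anaphase-promoting complex, had 16.1, 16.7 and 18.7 CPM in Control, 15.2, 14.1 and 15.2 CPM with BGP, and 14.6, 15.4 and 15.1 CPM with NaHPO4. Its Control libraries lay above all treated libraries, and it had the lowest log2FC of the 50 genes for NaHPO4 vs Control (-0.19, SE 0.081, adjusted p = 0.155), with -0.21 (SE 0.083, adjusted p = 0.213) for BGP vs Control. *Ube2c*, the E2 enzyme of the complex, had the lowest log2FC of the 50 genes for BGP vs Control, -0.22 (SE 0.094, adjusted p = 0.29). *Mad2l1*, which inhibits Cdc20 until all chromosomes are attached, had 0.14 (SE 0.048, adjusted p = 0.0817) for NaHPO4 vs Control. *Bub3*, a checkpoint protein that also takes part in splicing, varied little. Its mean was 71.6 CPM with NaHPO4, 72.5 CPM in Control and 72.8 CPM with BGP, and the 95% interval of the log2FC for BGP vs NaHPO4 was -0.061 to 0.11.

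At the centromere and kinetochore, 1 of 5 genes was called, lower with BGP than with NaHPO4, where 2.05% of all genes were called lower. *Nuf2* (ENSMUSG00000026683, chromosome 1, 169325503 to 169359098), of the NDC80 complex that binds spindle microtubules, had 9.68, 12.7 and 12.5 CPM in Control, 9.38, 10.7 and 10.3 CPM with BGP, and 12.4, 12.9 and 13.0 CPM with NaHPO4. BGP and NaHPO4 did not overlap, whereas Control spanned both (BGP vs NaHPO4 log2FC -0.33, SE 0.1, adjusted p = 0.0432). The call was lost without any of the 3 BGP or the 3 NaHPO4 libraries in turn (adjusted p from 0.0562 to 0.206) and with DESeq2 (adjusted p = 0.0656). *Cenpe*, a kinetochore kinesin, was nearest to 0 in the same comparison at -0.037 (adjusted p = 0.879), and *Cenpa*, the centromeric histone, was the lowest gene of the group per kb of exon.

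Of the 7 mitotic kinesins, 2 were called, both lower in BGP vs NaHPO4, where 2.05% of all genes were called lower. *Kif11* (ENSMUSG00000012443, chromosome 19, 37364799 to 37410307) encodes Eg5, the motor that pushes spindle poles apart. It had 39.6, 37.4 and 41.1 CPM in Control, 37.8, 37.9 and 36.2 CPM with BGP, and 43.2, 43.7 and 40.1 CPM with NaHPO4, so the treatments did not overlap and Control lay across them. Its log2FC was -0.18 (SE 0.054, adjusted p = 0.0354), and the call was lost without any of the 3 BGP libraries or without NaHPO4 replicate 1 or 2 (adjusted p from 0.0804 to 0.166) and with DESeq2 (adjusted p = 0.0603). *Kif4* (ENSMUSG00000034311, chromosome X, 99669343 to 99770946) encodes a chromosome-bound motor that works with condensin. It had 12.2, 12.8 and 13.2 CPM in Control, 11.1, 12.7 and 12.3 CPM with BGP, and 13.8, 13.7 and 17.6 CPM with NaHPO4. NaHPO4 replicate 3 was far above the other libraries of *Kif4*, and without it the log2FC for BGP vs NaHPO4 went from -0.31 (SE 0.096, adjusted p = 0.0477) to -0.19 (adjusted p = 0.37). The call was also lost without Control replicate 1 or any of the BGP libraries (adjusted p of 0.0503 or more), with DESeq2 (adjusted p = 0.0735) and when only the 2 treatments were fitted (adjusted p = 0.0502). *Kif18a*, which limits chromosome oscillation, had the lowest value of the group, -0.33 (SE 0.121, adjusted p = 0.124), and *Kif23*, of the central spindle, had the highest, 0.079 (adjusted p = 0.73).

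In spindle assembly, all 7 genes lay below 0 in BGP vs NaHPO4 and above 0 in NaHPO4 vs Control. In the former 2 were called, where 2.05% of all genes were called lower. *Tpx2* (ENSMUSG00000027469, chromosome 2, 152689854 to 152737245), which activates Aurora A on the spindle, had 33.7, 33.0 and 35.2 CPM in Control, 29.4, 31.3 and 31.9 CPM with BGP, and 36.6, 38.0 and 36.3 CPM with NaHPO4. The conditions did not overlap, with BGP lowest, Control between and NaHPO4 highest. Its log2FC was -0.26 (SE 0.056, adjusted p = 0.0024) for BGP vs NaHPO4, 0.12 (SE 0.055, adjusted p = 0.204) for NaHPO4 vs Control and -0.14 (SE 0.058, adjusted p = 0.252) for BGP vs Control. *Ckap2* (ENSMUSG00000037725, chromosome 8, 22658164 to 22675852), a microtubule nucleator, had 25.5, 24.2 and 26.4 CPM in Control, 22.3, 23.9 and 24.2 CPM with BGP, and 26.4, 28.6 and 28.3 CPM with NaHPO4. BGP and NaHPO4 did not overlap (log2FC -0.24, SE 0.065, adjusted p = 0.017), and the call was lost without BGP replicate 1 or NaHPO4 replicate 2 or 3 (adjusted p from 0.0716 to 0.12). *Aspm*, a spindle pole protein, had the lowest log2FC of the group for BGP vs Control, -0.21 (SE 0.075, adjusted p = 0.154), and *Prc1*, which bundles the central spindle, had the highest for NaHPO4 vs Control, 0.15 (SE 0.062, adjusted p = 0.161).

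The 3 cytokinesis genes were called in no comparison. Over all genes, 3.43% were called higher with NaHPO4 than in Control and 2.05% lower with BGP than with NaHPO4. For BGP vs Control 2.53% were called, and 0 of 3 is near these shares. All 3 genes were lower at an unadjusted p below 0.05 in BGP vs NaHPO4, and so were 1069 of all 13679 genes. *Ect2*, which activates RhoA at the division plane, had the lowest log2FC, -0.24 (SE 0.077, adjusted p = 0.0649), *Anln*, an actin and septin scaffold, had -0.18 (SE 0.062, adjusted p = 0.0936), and *Racgap1*, the partner of Ect2, had -0.16 (SE 0.061, adjusted p = 0.142). The BGP and NaHPO4 libraries overlapped for *Racgap1*. *Foxm1*, the transcription factor of many G2 and M phase genes, had 34.9, 33.5 and 41.8 CPM in Control, 34.3, 35.2 and 38.3 CPM with BGP, and 38.7, 38.2 and 37.8 CPM with NaHPO4. Control replicate 3 was its highest library, the conditions overlapped, and the log2FC for BGP vs NaHPO4 was -0.088 with a 95% interval of -0.22 to 0.042.

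Whether a gene passed the test went with its count as well as with the size of its change. The 13 genes called in BGP vs NaHPO4 had a median level of 36.3 CPM and a median SE of 0.058 on the log2 scale, whereas the other 37 had 18.7 CPM and 0.083. The median log2FC was -0.27 in the former, which the call itself favours, and -0.11 in the latter. Counts of the 50 genes lay between 74 and 4213 in a library. For a gene with the SE of *Cdc25c*, the lowest of the 50 at a mean of 3.69 CPM, the 95% interval for BGP vs NaHPO4 ran from -0.27 to 0.39, so that differences of the size seen in the called genes were not detectable for it at this depth.

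**Figure D4:**
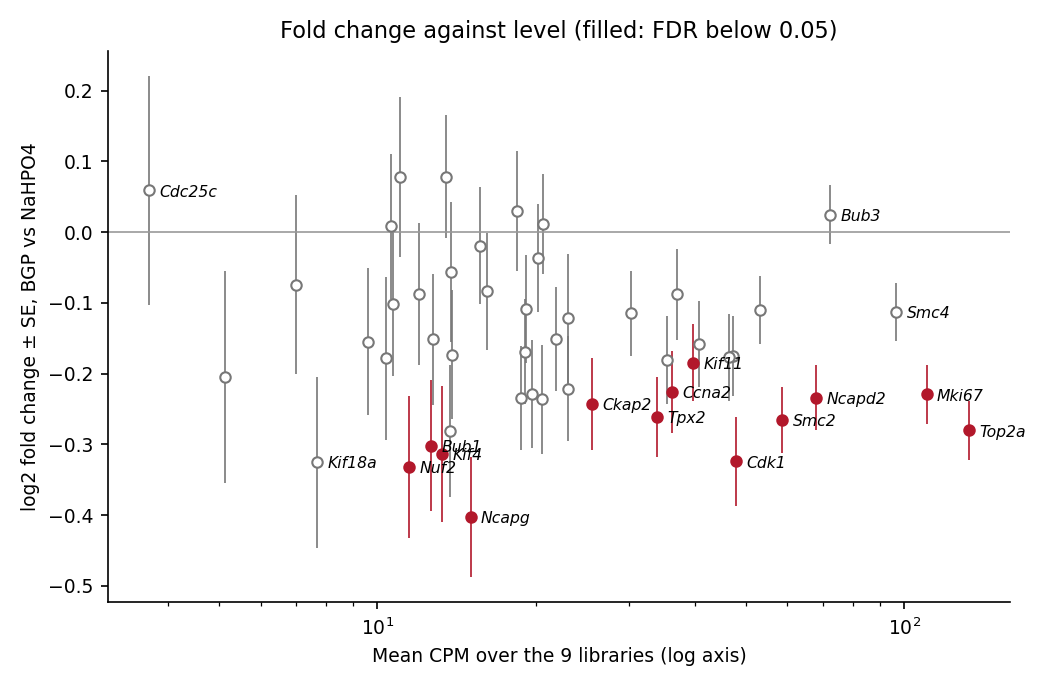
Log2 fold change (BGP vs NaHPO4, with SE) of each of the 50 mitosis genes against its mean CPM over the 9 libraries on a log axis; filled points passed an FDR below 0.05. Error bars shorten with level, and *Smc4* and *Bub3* are highly expressed genes that were not called (log2FC -0.11 and 0.025).

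Per kb of exon, the levels in Control ran from 0.608 CPM per kb (*Cdc25c*) to 14.8 CPM per kb (*Smc4*), with a median of 4.11 CPM per kb. After *Smc4* came *Top2a* with 14.2, *Cks1b* with 10.7, *Mki67* with 10.6 and *Smc2* with 9.91 CPM per kb. Lowest after *Cdc25c* were *Kif18a* with 0.686 and *Ttk*, a checkpoint kinase, with 0.852 CPM per kb. The exon length is that of all annotated exons together, so a gene with long, little-used exons has too low a value on this scale. The genes lie on 18 chromosomes. In 15 of the 50, over 5% of the exonic bases overlap another gene, among the called genes *Ncapg*, *Smc2*, *Ncapd2*, *Ccna2* and *Kif4*. They include genes named above for an extreme value, such as *Aurka* (38.65%), *Cdc25c* (31.4%), *Ube2c* (19.0%) and *Prc1* (11.8%), whose counts are less certain. In 17 of the 50, over 5% of the 50-base windows of their transcripts also occur in another gene, with 8.9% for *Cdc20*.

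A wider list held 127 mitosis genes outside the 50. With NaHPO4, 4 of them were higher than in Control and 0 lower (29 and 4 at an unadjusted p below 0.05), a share near the 3.43% of all genes called higher, and with BGP 0 were called against Control by edgeR's quasi-likelihood test (7 higher and 11 lower at an unadjusted p below 0.05). Between the treatments, 7 were lower with BGP and 0 higher (36 and 0 unadjusted), where 2.05% of all genes were lower. At an unadjusted p below 0.05, 1340 of all 13679 genes were higher and 1388 lower for NaHPO4 vs Control. For BGP vs Control 986 were higher and 845 lower, with 2.53% of all genes past the FDR. For BGP vs NaHPO4 1247 were higher and 1069 lower. The median log2FC of the 127 listed genes was 0.071, -0.041 and -0.098 in these 3 comparisons. Besides *Ncapg2* and *Ncaph*, the genes higher with NaHPO4 were *Clasp2*, a microtubule plus-end protein (log2FC 0.16, SE 0.048, adjusted p = 0.0272), and *Arpp19*, an inhibitor of the phosphatase that opposes Cdk1 (log2FC 0.15, SE 0.044, adjusted p = 0.0269). The genes lower with BGP than with NaHPO4 included *Knl1*, a kinetochore scaffold (log2FC -0.37, SE 0.093, adjusted p = 0.00977), *Plk4*, the kinase of centriole duplication (log2FC -0.31, SE 0.076, adjusted p = 0.00994), and *Zwilch*, a kinetochore checkpoint protein (log2FC -0.41, SE 0.119, adjusted p = 0.0296).

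Of 23 genes that control the transcription of mitosis genes (the E2F, DREAM, Myb and NF-Y families), 22 were tested. With NaHPO4, 4 were higher than in Control, against 3.43% of all genes: *Tfdp1* (log2FC 0.19, adjusted p = 0.00376) and *Tfdp2* (log2FC 0.13, adjusted p = 0.0391), the partners of E2F proteins, *Rbl1*, the p107 subunit of DREAM (log2FC 0.25, adjusted p = 0.00971), and *E2f1* (log2FC 0.24, adjusted p = 0.0109). Lower with BGP than with NaHPO4 were *Rbl1* (log2FC -0.24, adjusted p = 0.0152), *E2f1* (log2FC -0.22, adjusted p = 0.0257) and *Mybl2*, which encodes B-Myb (log2FC -0.40, SE 0.123, adjusted p = 0.0456), where 2.05% of all genes were lower. Called between BGP and Control were 0 of 22, where 2.53% of all genes were called. At an unadjusted p below 0.05, 1 of the 22 was higher and 0 lower, compared to 986 higher and 845 lower of all 13679 genes.

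DNA is replicated in S phase, before mitosis. Of 40 replication genes, 21 rose with NaHPO4 over Control (3.43% of all genes did), and 23 were lower with BGP when the treatments were compared (2.05% of all genes were). Their median log2FC was 0.23 and -0.25, and 0 were called between BGP and Control by the quasi-likelihood test (1 higher and 2 lower at an unadjusted p below 0.05). Of all 13679 genes, 2.53% were called between BGP and Control, with 986 higher and 845 lower at the unadjusted limit. *Mcm6*, of the replicative helicase, had a mean of 94.1 CPM with NaHPO4, 73.8 CPM in Control and 73.7 CPM with BGP (log2FC 0.35, SE 0.039, adjusted p = 4.61e-08 for NaHPO4 vs Control). *Uhrf1*, which maintains DNA methylation at replication forks, had the smallest p between the treatments (log2FC -0.43, SE 0.047, adjusted p = 4.87e-08). The median log2FC of the 50 mitosis genes, 0.092 and -0.17, was nearer to 0 than that of the replication genes in both comparisons, a difference between lists that was not tested.

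**Figure D5:**
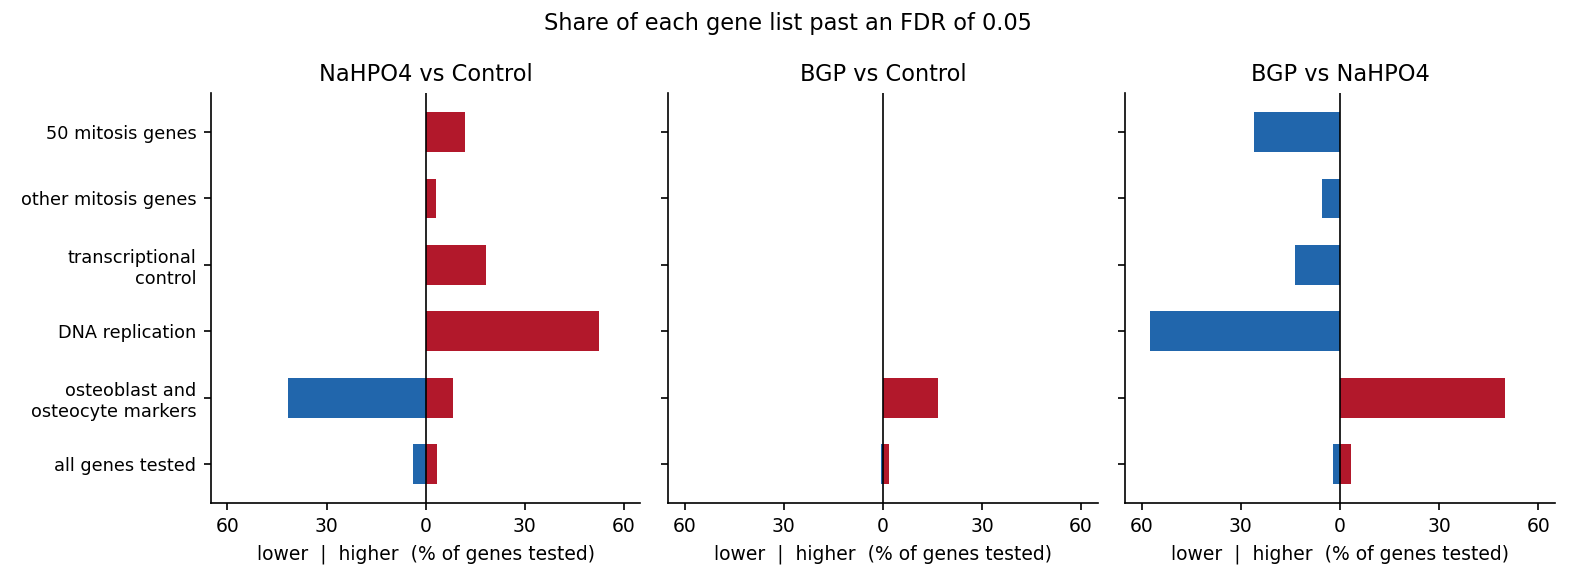
Share of the tested genes of each list that passed an FDR below 0.05, higher (red, right) or lower (blue, left), in the 3 comparisons; the bottom bar is all 13679 genes tested. Called were 6, 0 and 13 of the 50 mitosis genes and 21, 0 and 23 of the 40 replication genes.

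The osteoblast and osteocyte markers also differed, mostly in the opposite direction in the 2 comparisons with NaHPO4. Their log2FC ran from -1.685 to 2.19 for NaHPO4 vs Control and from -0.015 to 1.48 for BGP vs NaHPO4. For BGP vs Control their median log2FC was -0.0052, with 7 of the 12 below 0. With NaHPO4, 5 of the 12 were lower than in Control (3.95% of all genes were) and 1, *Dmp1*, was higher. With BGP, 2 of the 12 were higher than in Control (1.86% of all genes), and 6 were higher and 0 lower than with NaHPO4 (3.33% of all genes were higher). *Col1a1*, the main bone collagen, had a log2FC of -0.22 (SE 0.034, adjusted p = 2.47e-05) for NaHPO4 vs Control and 0.16 (SE 0.034, adjusted p = 0.00283) for BGP vs NaHPO4, and the 12 markers summed to 98710 to 104900 CPM before TMM scaling with NaHPO4, 106800 to 112000 CPM with BGP and 109800 to 115800 CPM in Control. *Dmp1*, of osteocytes, was higher with both treatments (log2FC 2.19, SE 0.062, with NaHPO4 and 2.86, SE 0.062, with BGP). *Col2a1* was lower with NaHPO4 (log2FC -0.45, SE 0.095, adjusted p = 0.00141) and higher with BGP (log2FC 0.50, SE 0.094, adjusted p = 0.000754) than in Control. The 4 chondrocyte markers, of which *Col2a1* made up most, summed to 246 to 306 CPM in Control, 335.5 to 442.5 CPM with BGP and 186 to 268 CPM with NaHPO4. Of the 4, 3 were tested. For NaHPO4 vs Control their log2FC ran from -0.45 to 0.81 (median -0.072, 1 above 0), so the list did not move together. For BGP vs Control all 3 lay above 0. Markers of blood and endothelium summed to between 1.59 and 2.28 CPM over all libraries, those of adipocytes to between 9.95 and 15.6 CPM, and those of myoblasts to between 7.38 and 10.05 CPM. The part of these markers in the differences of the mitosis genes was not tested.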

How the data were processed

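RNA of MC3T3-E1 cells was sequenced as 9 stranded poly(A) libraries (3 per condition). The authors checked the reads with FastQC, processed them in the AIR software against GRCm39 and Ensembl release 104, and deposited whole-number read counts per gene without normalization. The aligner, the counting program and its strand setting are not given in the sources used here. The authors also deposited a TMM-scaled signal, which was used only for an alternative with limma.

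Low genes of the deposited counts were removed with edgeR 4.0.16 (R 4.3.3; filterByExpr, count minimum 10), which left 13679 of 55416 genes, and scaled by TMM. All 9 libraries entered 1 quasi-likelihood fit with a coefficient per condition and no covariate (glmQLFit, glmQLFTest), and p-values were adjusted by Benjamini-Hochberg over all genes tested. CPM are counts relative to the TMM-scaled library size. SE and 95% intervals come from the same fit. Alternatives were other tests (DESeq2 1.42.0, limma 3.58.1 and, within edgeR, the exact and likelihood ratio tests), scalings, filters, thresholds, the fit without each library and the fit with a replicate block. The fit was checked on simulated data with 200 changed genes. Each library counted as 1 in the tests. Libraries of 1 condition differed by more than sampling noise (chi-square per degree of freedom 2.61 to 4.85), which cannot show whether they came from separate cultures.

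Named were all members with an FDR below 0.05, 7 genes fixed by name (*Cdk1*, *Ccnb1*, *Plk1*, *Aurkb*, *Mki67*, *Top2a*, *Foxm1*), those lowest or highest in their role, and of other lists at most 5 called genes per comparison. The members, lists and tests were chosen with earlier results of these data known. Positions came from GENCODE M39 on GRCm39, promoters from RefSeq (GRCm38.p6), matched in GRCm39 by sequence. Sequence shared between genes was counted over all windows of 50 bases of the annotated transcripts.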

Additional observations from a re-analysis of the deposited data

How the results depend on the processing

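For NaHPO4 vs Control, the count of 6 higher genes became 10 with total counts in place of TMM, 2 at an FDR of 0.01 and 0 with the minimum log2FC of 0.5 added, and lay between 3 and 8 with 1 library left out. The median log2FC of 0.092 then lay between 0.070 and 0.14. For BGP vs Control the count was 0 under all alternatives, and the median of -0.079 lay between -0.10 and -0.025 with 1 library left out, the latter without Control replicate 3. For BGP vs NaHPO4, the count of 13 lower genes became 20 with the exact test, 22 with total counts, 7 at an FDR of 0.01 and 0 with the minimum log2FC added, and lay between 7 and 15 with 1 library left out; its median lay between -0.18 and -0.15. Of the remaining alternatives, none moved a count by more than 1.5 times or changed the direction of a median. Total counts moved the median of all genes by 0.025 for NaHPO4 vs Control, and how far the scaling sets the shift of the members was not tested. Correlations between libraries of different conditions were low (mean 0.0127 for the same replicate number and -0.00632 for different numbers). With the same number they were 0.0301, 0.0426 and 0.0409 for Control and NaHPO4, and 0.0242, -0.00421 and -0.0092 for Control and BGP. For BGP and NaHPO4 they were -0.00392, -0.0055 and -0.00109. Whether libraries of 1 number were handled together cannot be told from these values. With the number as a block the counts were 6, 0 and 13. Depth limits the genes with few counts, whose SE reached 0.165 on the log2 scale, and 3 libraries per condition limit all others.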
